A study of Mus musculus with 12 samples.

Results

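Genes of bone formation and of bone resorption control were followed in OP9 stromal cells treated with imatinib; the 9 members are Tnfrsf11b, Tnfsf11, Sp7, Alpl, Spp1, Ibsp, Bglap2, Phex and Postn. They were chosen by name, with earlier results of these data known. Every probe annotated with one of their symbols was taken on all 12 arrays, detected or not. Of the 19057 genes with a probe of their own, 8 belong to the set, with 13 of 45281 probes, and Spp1 was not analysed here because no probe used carries its symbol. A gene was counted as measured when a probe of it had a detection p-value under 0.05 on at least 3 of the 12 arrays. Of the members, 6 (7 probes) passed: Tnfrsf11b, Tnfsf11, Sp7, Alpl, Ibsp and Bglap2. Phex and Postn were detected on 0 of 12 arrays.

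OP9 is a stromal line from the calvaria, the bones of the skull vault, of newborn B6C3F1 op/op mice, and the labels call the cells MSCs (mesenchymal stem cells). The op mutation removes functional Csf1, the macrophage colony-stimulating factor, so the cells of every group, vehicle included, carry it. The 4 groups of 3 arrays were vehicle at 0 h and imatinib, which blocks the kinase activity of ABL, of KIT and of the PDGF receptors, at 32 h, 64 h and 96 h; the imatinib concentration is not given in the sources used here. The study asked how imatinib changes stromal cells that shelter BCR-ABL-positive leukaemia cells. OP9 is 1 cell line, no leukaemia cells are named in the labels, and vehicle was sampled at 0 h only, so treatment and time in culture cannot be told apart.

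Osteoblasts build bone matrix and mineralise it, and they and their stromal precursors also set how many osteoclasts form. RANKL, the product of Tnfsf11, binds RANK on osteoclast precursors together with the action of Csf1 and drives them to become bone-resorbing cells, and osteoprotegerin, the product of Tnfrsf11b, is a secreted decoy receptor that binds RANKL and blocks it. Sp7 (osterix) is a transcription factor that osteoblast precursors need to mature, and Alpl, Ibsp and Bglap2 are switched on as they do so.

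Median signal was 104 to 112 intensity units per array, 35.7 to 38.3% of probes were detected, and arrays of 1 group correlated at r = 0.988 to 0.991 over probes. Levels are log2 intensities after background correction and quantile normalization, and the lowest level of a detected probe was 4.79 to 4.89 on the different arrays. Vehicle and 96 h arrays share 1 array label and 32 h and 64 h arrays the other. Only the comparisons of 96 h with vehicle and of 64 h with 32 h stay within a label, and in all others array label and time cannot be told apart. The median SE of a log2 change was 0.15. Nothing in the labels tells whether a group's samples came from separate cultures; p-values therefore reflect the spread between these samples, which may be technical. In these bulk samples, fewer cells of a type and less RNA per cell cannot be told apart.

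Tnfrsf11b, the RANKL decoy, was detected on 12 of 12 arrays and rose over the imatinib times. Its log2 intensities were 9.14, 9.12 and 8.72 in vehicle, 9.24, 9.54 and 9.27 at 32 h, 10.08, 10.33 and 9.83 at 64 h, and 10.69, 10.65 and 10.55 at 96 h. The 4 groups lay in the order of their times and no 2 of them overlapped, and the 3 arrays at 96 h were the closest together (10.63 ± 0.07, SD, n = 3, against 8.99 ± 0.24 in vehicle). At 96 h Tnfrsf11b was 3.12-fold above vehicle (log2 1.64 ± 0.15 SE, 95% interval 1.31 to 1.97, adjusted p = 2.47e-06), the 51st highest change among 10211 genes. From 32 h to 64 h it rose 1.66-fold (log2 0.73 ± 0.15, adjusted p = 0.0355), the 46th highest.

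Across the array labels, Tnfrsf11b rose by log2 1.09 at 64 h against vehicle (adjusted p = 0.000222) and by 1.28 from 32 h to 96 h (adjusted p = 0.000113). The step from vehicle to 32 h was 0.36 (95% interval 0.03 to 0.69, adjusted p = 0.255) and that from 64 h to 96 h was 0.55 (0.22 to 0.88, adjusted p = 0.176), so neither passed. The call from 32 h to 64 h ended without 32 h replicate 1 or 3 (adjusted p = 0.135 and 0.117), without 64 h replicate 1 or 2 (0.0985 and 0.154), in a fit of only those 6 arrays (0.0952) and with no filter on detection (0.0552).

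Tnfsf11, which encodes RANKL itself, stayed near background. Its levels were 4.62, 4.89 and 4.64 in vehicle, 5.11, 4.80 and 4.98 at 32 h, 4.42, 4.49 and 4.41 at 64 h, and 4.47, 4.33 and 4.93 at 96 h. It was detected on all 3 arrays at 32 h, on 1 of 3 in vehicle and at 96 h, and on 0 of 3 at 64 h. The 64 h arrays lay below every 32 h array, with at least 1.11-fold between the groups when the undetected probe is set to the lowest detected level, but the change did not pass (log2 -0.52 ± 0.15, 95% interval -0.85 to -0.20, adjusted p = 0.151). At 96 h against vehicle the change was -0.14 (-0.47 to 0.19, adjusted p = 0.631), an interval that allows a fall or a small increase. The Tnfrsf11b message rose where no change of Tnfsf11 passed, and the difference between these 2 changes was not tested.

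Sp7, the osteoblast transcription factor, was read by 2 probes. The brighter one gave 6.21, 6.44 and 6.31 in vehicle, 6.53, 6.73 and 6.83 at 32 h, 7.28, 7.45 and 7.24 at 64 h, and 7.54, 7.34 and 7.41 at 96 h. Vehicle lay below 32 h and 32 h below 64 h with no overlap, while 64 h and 96 h overlapped. At 96 h Sp7 was 2.15-fold above vehicle (log2 1.11 ± 0.12 SE, n = 3 a group, 95% interval 0.84 to 1.37, adjusted p = 1.81e-05), the 137th highest of all measured genes. From 32 h to 64 h it rose 1.55-fold (0.63 ± 0.12, adjusted p = 0.0226).

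At 64 h the brighter Sp7 probe had already reached log2 1.00 above vehicle (adjusted p = 7.19e-05), and from 64 h to 96 h it moved by 0.10 (95% interval -0.16 to 0.37, adjusted p = 0.811). From 32 h to 96 h it rose by 0.74 (adjusted p = 0.00277), and at 32 h its difference from vehicle, 0.37, did not pass (adjusted p = 0.132). The dimmer probe was detected on 0 of 3 vehicle arrays (4.49, 4.79 and 4.80) and on all 9 imatinib arrays (5.05 to 5.83), at least 1.72-fold higher at 96 h and at least 1.43-fold higher at 64 h. It passed the detection filter through the imatinib groups alone, so these values are a description and no support for the rise of the brighter probe. The dimmer probe showed 0.13 from 32 h to 64 h (adjusted p = 0.803), where the brighter one rose. From 64 h to 96 h the dimmer probe showed 0.26 (95% interval -0.06 to 0.58, adjusted p = 0.538 by limma).

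The Sp7 call from 32 h to 64 h ended with the mean of both probes (log2 0.38, adjusted p = 0.105), with only those 6 arrays (0.0928), without 32 h replicate 1 or 2 (0.112 and 0.0641) and without 64 h replicate 1, 2 or 3 (0.0600, 0.116 and 0.0514). With no background correction the Sp7 changes were smaller but kept their calls, at 0.64 for 96 h and 0.57 for 64 h against vehicle, 0.38 from 32 h to 64 h and 0.44 from 32 h to 96 h.

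**Figure D1:**
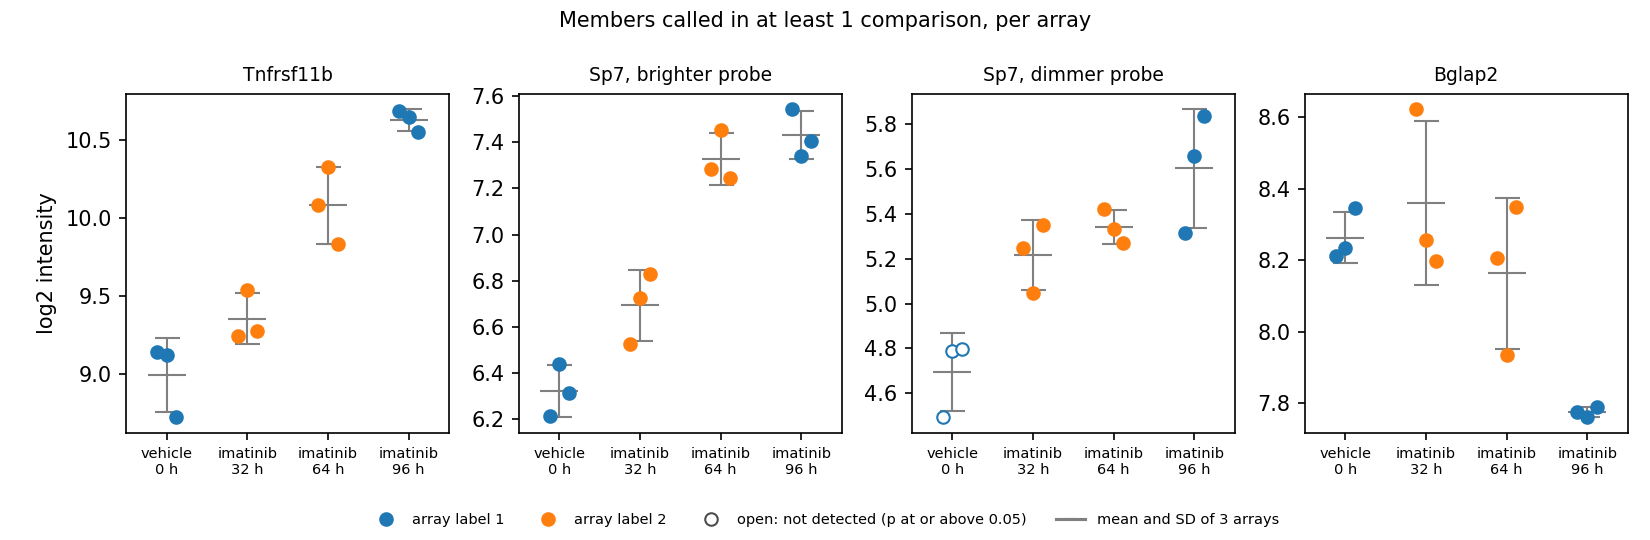
Log2 intensity of Tnfrsf11b, both Sp7 probes and Bglap2 on each of the 12 arrays (points, coloured by array label, open where not detected), with the mean and SD of each group of 3. Tnfrsf11b climbs from 8.72 to 9.14 in vehicle to 10.55 to 10.69 at 96 h. The 64 h and 96 h arrays of the brighter Sp7 probe overlap, and the 96 h arrays of Bglap2 lie below all others. The vertical axes differ between panels.

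Bglap2, an osteocalcin gene whose small secreted protein binds bone mineral, was detected on 12 of 12 arrays and fell late. Its levels were 8.21, 8.23 and 8.35 in vehicle, 8.62, 8.26 and 8.20 at 32 h, 8.21, 7.93 and 8.35 at 64 h, and 7.77, 7.76 and 7.79 at 96 h. All 3 arrays at 96 h lay below all 9 others, while the other 3 groups overlapped. Bglap2 was 1.40-fold lower at 96 h than in vehicle (log2 -0.49 ± 0.14 SE, n = 3 a group, 95% interval -0.79 to -0.19, adjusted p = 0.0299) and lower than at 32 h by the same test (-0.59, adjusted p = 0.0258).

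The fall of Bglap2 was close to the threshold. Leaving out any 1 of the 6 arrays of 96 h and vehicle ended that call, with adjusted p from 0.0601 to 0.0991 and the change between -0.51 and -0.45. The call against 32 h ended without any 1 of the 96 h arrays (0.0721, 0.0750 and 0.0688), without 32 h replicate 1 (0.106) and with only those 6 arrays (0.0580). From 64 h to 96 h the groups did not overlap, but the change of -0.39 did not pass (95% interval -0.69 to -0.09, adjusted p = 0.285). At 32 h and 64 h Bglap2 differed from vehicle by 0.10 and -0.10 (adjusted p = 0.802 and 0.715).

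Bglap2 lies beside the close osteocalcin copies Bglap and Bglap3 in the mouse genome, so which copy a probe reads is uncertain. The brighter probe annotated to Bglap was detected on 12 of 12 arrays (5.20 to 6.30). Its change at 96 h against vehicle was -0.40 ± 0.21 (adjusted p = 0.258), and against 32 h -0.62 (adjusted p = 0.116), so neither passed. The other Bglap probe was detected on 2 of 12 arrays, and Bglap3 was not analysed here.

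The remaining members of the mineralising osteoblast were at or below the detection limit. Alpl, the phosphatase that frees phosphate for mineral, gave 4.75, 4.75 and 4.68 in vehicle, 5.21, 4.68 and 4.92 at 32 h, 4.58, 4.93 and 4.69 at 64 h, and 4.93, 4.68 and 4.55 at 96 h. It was detected on 4 of 12 arrays, 0 of them vehicle, and so passed the detection filter through the imatinib groups alone. Its change at 96 h against vehicle was -0.01 (95% interval -0.33 to 0.32, adjusted p = 0.987), and its values are a description. Ibsp, bone sialoprotein, which nucleates mineral, was read by 3 probes, of which the brightest was detected on 4 of 12 arrays.

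That Ibsp probe gave 4.96, 4.77 and 4.52 in vehicle, 4.66, 4.92 and 4.68 at 32 h, 4.57, 5.02 and 5.06 at 64 h, and 4.61, 4.67 and 4.64 at 96 h, with every group overlapping vehicle. Its change at 96 h against vehicle was -0.11 (-0.43 to 0.22, adjusted p = 0.715). The other Ibsp probes were detected on 0 of 12 (4.37 to 4.63) and 1 of 12 arrays (4.24 to 4.94). Phex, the endopeptidase of osteoblasts and osteocytes whose loss causes phosphate wasting, gave 4.25 to 4.77, not well above background on any array. Postn, the periosteal matrix protein periostin, was likewise below the detection limit with all 3 probes, at 4.22 to 4.46, 4.27 to 4.51 and 4.25 to 4.50. For these genes the arrays give only an upper bound on the level, and a change within that range was not detectable.

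**Figure D2:**
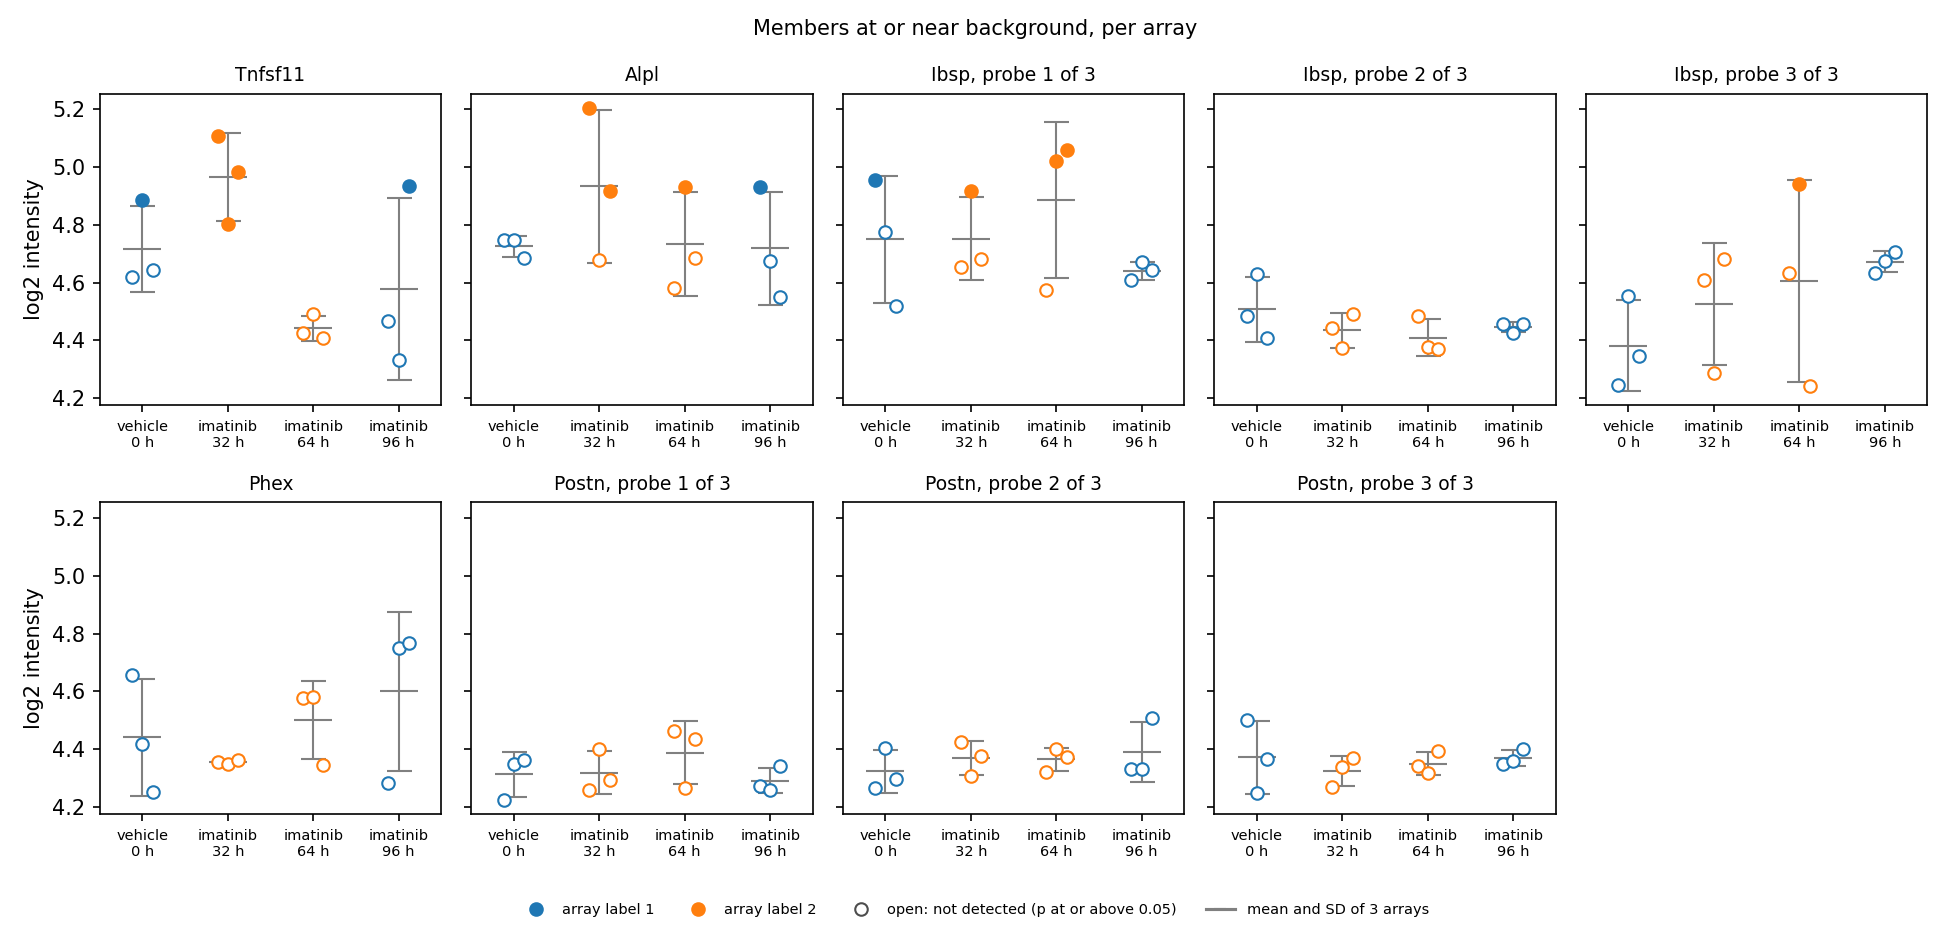
Log2 intensity on each of the 12 arrays for the probes of Tnfsf11, Alpl, Ibsp, Phex and Postn (filled where detected, open where not), with the mean and SD of each group of 3 and 1 shared vertical axis. All points lie between 4.22 and 5.21, and Tnfsf11 at 32 h is the only group with all 3 arrays detected.

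The promoters of the 3 measured members that stayed near background are shown here, since they are those of the 6 measured members that the RefSeq promoter table (GRCm38.p6) holds; each is the 250 bases before the gene's start, 5′ to 3′ on the gene's strand. Capitals mark matches, on either strand, to a CCAAT box (reverse complement ATTGG), to the element TATAAA (reverse complement TTTATA) and to a GC box, which is GGGCGG with the reverse complement CCGCCC.
Tnfsf11, chr14:78308044-78308293, minus strand: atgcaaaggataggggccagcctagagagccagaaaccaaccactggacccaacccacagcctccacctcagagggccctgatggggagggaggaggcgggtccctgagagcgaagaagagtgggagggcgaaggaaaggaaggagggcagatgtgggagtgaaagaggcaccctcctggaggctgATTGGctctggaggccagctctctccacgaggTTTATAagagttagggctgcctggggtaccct
Ibsp, chr5:104299037-104299286, plus strand: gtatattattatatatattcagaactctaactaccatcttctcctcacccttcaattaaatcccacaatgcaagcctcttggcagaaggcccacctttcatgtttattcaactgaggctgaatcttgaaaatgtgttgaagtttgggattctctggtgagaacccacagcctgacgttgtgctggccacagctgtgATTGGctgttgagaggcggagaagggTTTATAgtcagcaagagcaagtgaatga
Alpl, chr4:137796385-137796634, minus strand: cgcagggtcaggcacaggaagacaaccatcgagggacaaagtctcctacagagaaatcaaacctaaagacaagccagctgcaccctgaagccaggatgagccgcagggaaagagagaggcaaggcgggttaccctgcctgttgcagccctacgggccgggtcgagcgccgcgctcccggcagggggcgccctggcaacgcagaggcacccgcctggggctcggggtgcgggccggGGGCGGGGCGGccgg
The Tnfsf11 and Ibsp windows each hold 1 CCAAT box and 1 TATA element, both as their reverse complements, in the part nearest the start. The Alpl window printed holds neither, but 2 overlapping GC boxes, and its GC content is 68.4%, against 60.4% for Tnfsf11 and 43.6% for Ibsp. A second Alpl start in the table (chr4:137766476-137766725, minus strand) has the reverse, with 1 TATA element, 0 GC boxes and 56% GC, and which start these cells use was not tested. A RUNX core (TGTGGT or ACCACA), searched as the motif of the osteoblast factor Runx2, was in none of the 3. Of 32851 mouse promoters of this length, 33.8% hold a CCAAT box, 12.4% a TATA element, 32.7% a GC box and 14% a RUNX core. The CCAAT and TATA motifs were picked after the sequences were seen, and a match describes letters only.

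At 96 h against vehicle, 3 of the 6 measured members were called, Tnfrsf11b and Sp7 up and Bglap2 down, while 14.9% of all 10211 measured genes were called (7.51% up and 7.37% down). From 32 h to 64 h, 2 members rose, Tnfrsf11b and Sp7, where 1.23% of all genes were called (0.656% up). At 64 h against vehicle the same 2 rose (12.4% of all genes called, 6.33% up), and from 32 h to 96 h both rose and Bglap2 fell (5.27% of all genes, 2.81% up and 2.46% down). At 32 h against vehicle 0 of 6 were called by limma (4.16% of all genes), with 2 at an unadjusted p under 0.05, and from 64 h to 96 h again 0 of 6 (0.255%), with 2 at an unadjusted p under 0.05. The share of all genes at an unadjusted p under 0.05 was not counted. With 6 genes, of which 3 were near background, these shares describe single genes rather than the set. The comparisons with vehicle share its 3 arrays.

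**Figure D3:**
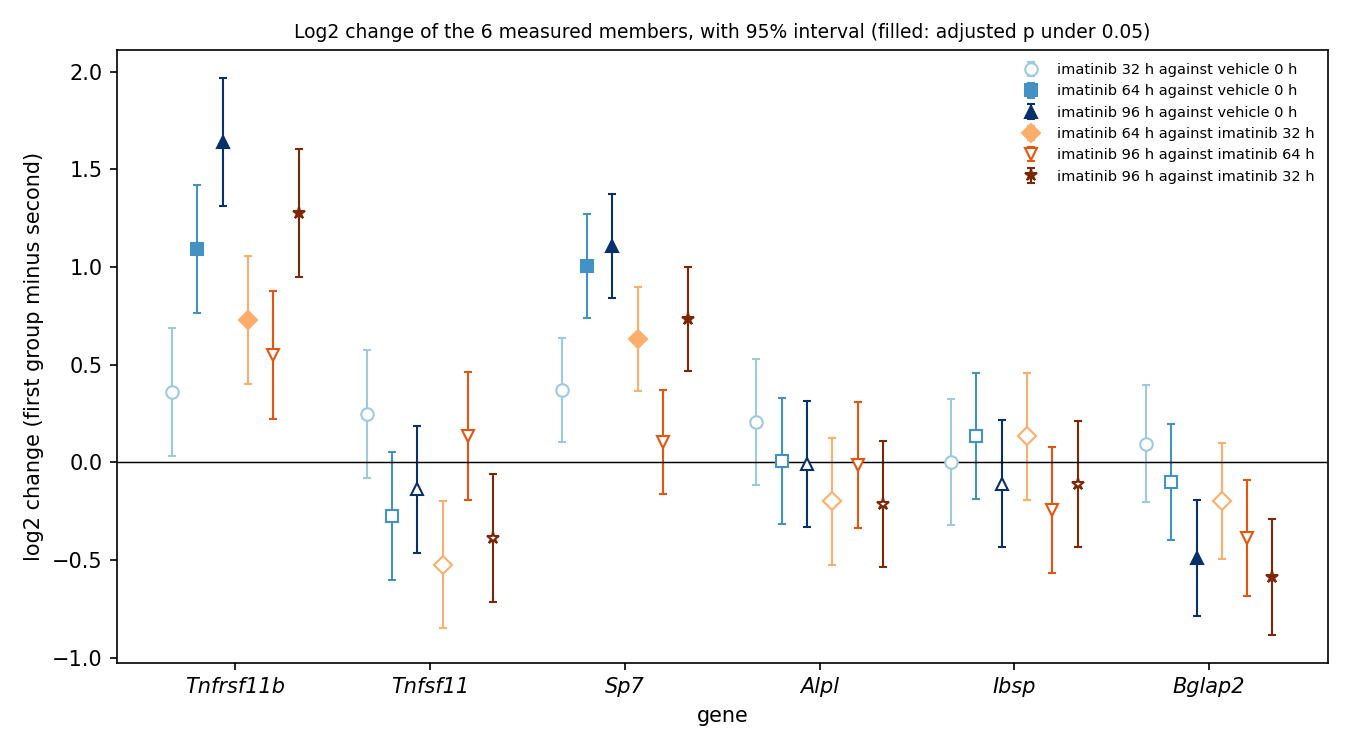
Log2 change (vertical axis) of the 6 measured members in the 6 comparisons, as the estimate with its 95% interval from the fit, filled where adjusted p was under 0.05. Tnfrsf11b and Sp7 lie above 0 in all 6 comparisons, with filled points up to 1.64 and 1.11, and the filled points of Bglap2 lie at -0.49 and -0.59.

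Other genes known to steer osteoclasts from the stroma moved in both directions at 96 h. Of 26 listed, 15 were measured, 3 rose and 3 fell, while 14.9% of all genes were called (7.51% up and 7.37% down). The median log2 change of the list was 0.01 against 0.00 over all genes. The chemokine gene Cxcl12, which also draws osteoclast precursors, rose by log2 2.18 ± 0.11 SE (n = 3 a group). Sfrp1, a secreted Wnt antagonist that can bind RANKL, rose by 1.04 ± 0.14, and Sema3a, a semaphorin that restrains osteoclast formation, by 0.66 ± 0.16. Those that fell were Ccl9, a chemokine for osteoclast precursors (-0.86 ± 0.14), the cytokine gene Il18 (-0.51 ± 0.13) and Wnt5a, whose product raises RANK on precursors (-0.49 ± 0.12). The call of Sema3a ended without vehicle replicate 2, that of Il18 without vehicle replicate 1 or 96 h replicate 2, and that of Wnt5a without vehicle replicate 1 or 96 h replicate 3 and with the mean of its probes (-0.29, adjusted p = 0.142). From 32 h to 64 h the 1 gene of this list that passed was Cxcl12, at 0.86, where 1.23% of all genes were called. Against vehicle at 32 h, across the array labels, Cxcl12 and Sfrp1 rose and Ccl2 fell (log2 -0.88, adjusted p = 0.0217 by limma). Over all genes 4.16% were called there. At 64 h Cxcl12, Sfrp1, Il6 and Sema3a rose and Ccl9 fell, where 12.4% of all genes were called. The 32 h call of Sfrp1 was lost in 7 of 18 alternatives and that of Ccl2 in 4. The 64 h calls of Il6 and Sema3a were each lost in 8 of 18.

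Of 19 regulators of osteoblast differentiation, 12 were measured at 96 h and 1 rose and 1 fell, with a median of -0.33; 2 of 12 is near the 14.9% called over all genes, so the count is no result about the list. Snai2, a zinc finger repressor, rose by 0.52 ± 0.12, and Dlx3, a homeobox factor of osteoblasts, fell by 1.09 on the log2 scale. Runx2, which acts before Sp7, was not analysed here. At 64 h against vehicle Snai2 rose and Dlx3, Twist1 and Junb fell, where 12.4% of all genes were called. The Junb call was lost in 9 of 18 alternatives, among them leaving out any 1 of the 6 arrays compared (adjusted p up to 0.136), and the Twist1 call in 4 of 18, among them leaving out vehicle replicate 2 or 64 h replicate 2 or 3 (up to 0.0784). At 32 h against vehicle 0 of 12 passed in limma, where 4.16% of all genes were called. Of the 12, 6 had an unadjusted p under 0.05, and the share of all genes under it was not counted.

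The matrix and mineral genes split. Of 27 listed, 17 were measured, 5 rose and 4 fell at 96 h against vehicle, with a median of 0.12. Over all genes 14.9% were called in that comparison (7.51% up and 7.37% down). The small leucine-rich proteins Ogn (log2 1.48 ± 0.14) and Omd (1.37 ± 0.16), the collagenase Mmp13 (1.11 ± 0.20, detected on 2 of 3 vehicle arrays), the collagen crosslinker Lox (0.87 ± 0.13) and the fibrillar collagen Col5a2 (0.65 ± 0.17) rose. Ank, which exports the mineral inhibitor pyrophosphate, fell by 1.62, Mgp, itself an inhibitor of calcification, by 1.35, and fibronectin Fn1 by 1.04. Tgfbi, a matrix protein induced by TGF-beta, was detected on 0 of 3 arrays at 96 h and at least 1.64-fold lower there. It passed the detection filter through the other groups alone, so its place among the 4 that fell is a description. Ogn, Omd, Lox, Ank, Mgp and Fn1 were also called the same way at 32 h against vehicle, where 4.16% of all genes were called. That comparison crosses the array labels, so label and time cannot be told apart in it. The call of Col5a2 ended without vehicle replicate 2 or 3 or 96 h replicate 2.

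Of 7 osteocyte genes 2 were measured, and Pdpn, podoplanin of early osteocytes, fell by 1.51 at 96 h. Among 18 hormone and cytokine receptors of osteoblasts 11 were measured, 3 rose and 0 fell at 96 h, where 14.9% of all genes were called (7.51% up). In limma 5 of 11 had an unadjusted p under 0.05 in either direction, and the share of all genes under it was not counted. Esr1, the oestrogen receptor, rose by log2 1.12 ± 0.16. Il6st, the shared receptor chain gp130, rose by 1.01 ± 0.26 with overlapping groups, and its call ended without vehicle replicate 2 or 3 or 96 h replicate 2 or 3, with only the 6 arrays compared and with no filter; its change ran from 0.39 to 1.37 over the alternatives. Il6ra rose by 0.39 ± 0.12, 1 of its 2 other probes had the opposite sign, and its call was lost in 11 of 19 alternatives. Among these were the mean of its probes (0.07, adjusted p = 0.742), no background correction (0.16, adjusted p = 0.102) and leaving out any 1 vehicle array or 96 h replicate 1 or 3. With no background correction several list genes kept their calls at 96 h at smaller sizes: Mmp13 at 0.40, Omd at 0.70, Col5a2 at 0.30, Dlx3 at -0.41, Sfrp1 at 0.58, Sema3a at 0.37, Wnt5a at -0.26 and Esr1 at 0.71. Mmp13 was also smaller with the mean of its probes (0.62). From 64 h to 96 h limma called 0 genes in any of the 5 lists, with 0 to 1 a list at an unadjusted p under 0.05. Over all genes 0.255% were called there.

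**Figure D4:**
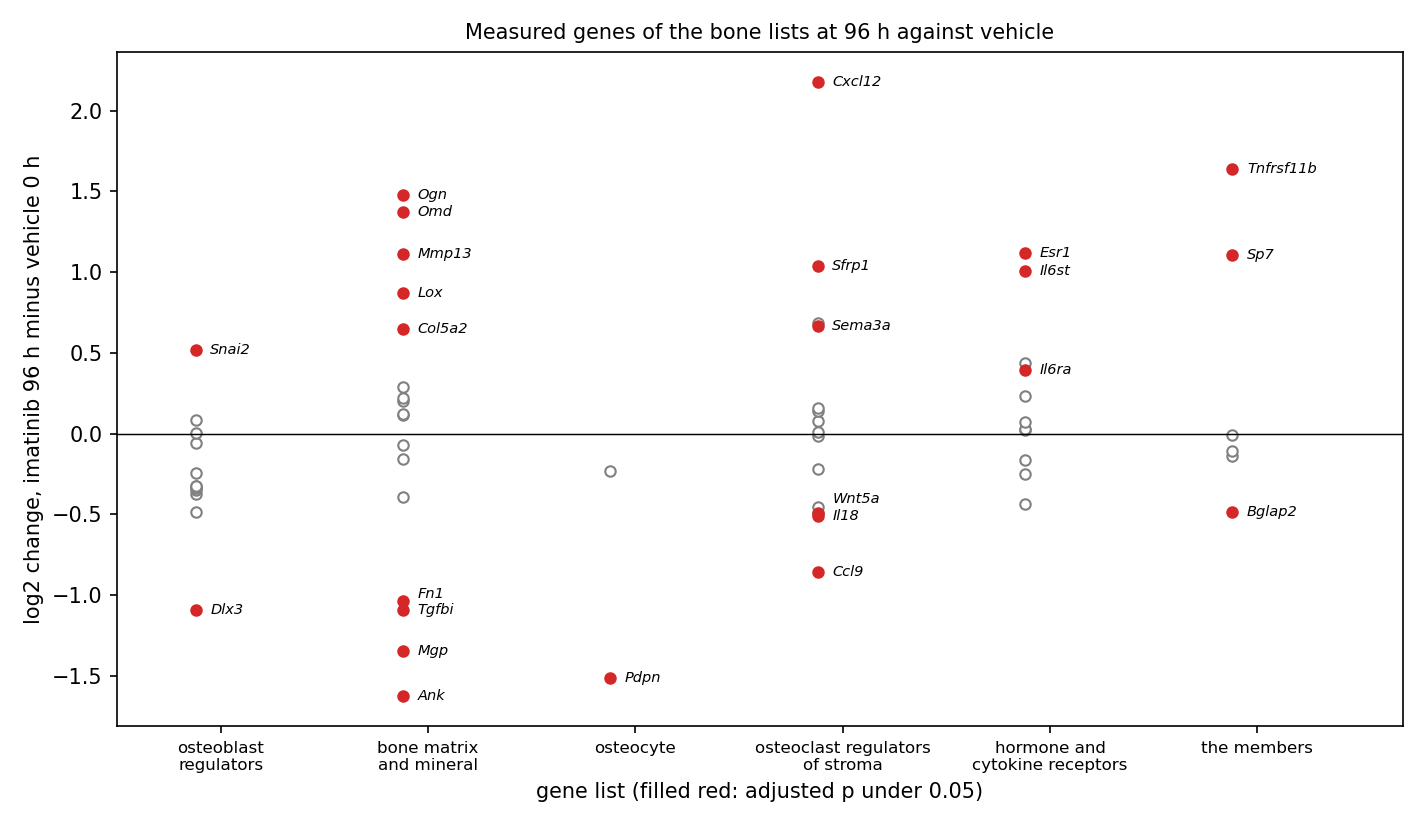
Log2 change at 96 h against vehicle (vertical axis) of each measured gene in the 5 bone lists and of the members (columns), filled red and named where adjusted p was under 0.05, open grey otherwise. Called genes lie on both sides of 0 in the matrix list, from Ank at -1.62 to Ogn at 1.48, and in the list of osteoclast regulators, from Ccl9 at -0.86 to Cxcl12 at 2.18.

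The genes whose levels followed a called member most closely over the 12 arrays were found among 9901 named genes. For Tnfrsf11b they were Lyz2 (Pearson r = 0.975), Rbp4 (0.973) and Islr (0.970), and for Sp7 they were Slc12a2 (0.981), Fzd5 (0.975) and Runx1 (0.966). For Bglap2 the closest were Chmp2a (0.879), Pfkm (0.872) and Tpm2 (0.871). The points share the 4 groups and 2 array labels, which r carries; 4.28% of genes had r above 0.8 with Tnfrsf11b, 4.81% with Sp7 and 0.384% with Bglap2. Between the members r was 0.94 for Tnfrsf11b with Sp7, -0.82 for Tnfrsf11b with Bglap2 and -0.70 for Sp7 with Bglap2.

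Markers of other cell types were read beside these changes, with 14.9% of all genes called at 96 h against vehicle (7.51% up and 7.37% down). Of 12 osteoclast markers, 7 were detected on 0 of 12 arrays (Acp5, Calcr, Dcstamp, Ocstamp, Atp6v0d2, Itgb3 and Tnfrsf11a, the gene of RANK), 5 were measured, and 1 rose (Ctsk, by log2 0.40) and 1 fell (Nfatc1, by 0.83, or by 0.52 with no background correction) at 96 h. The Ctsk call at 96 h ended with only the 6 arrays compared, without any 1 of the vehicle arrays and without 96 h replicate 2 or 3. Summed over the list, linear intensity was 485 to 538 in vehicle and 484 to 528 at 32 h, then 548 to 627 at 64 h, above every vehicle array, and 475 to 528 at 96 h. At 64 h against vehicle Ctsk was also called up (log2 0.69) and Nfatc1 down (-0.64), where 12.4% of all genes were called. Some adipocyte markers rose as Tnfrsf11b and Sp7 did: of 10 listed, 6 were measured, 3 rose at 96 h and 3 were not called. Adipoq rose by log2 3.04, Lpl by 1.42, and Cd36, detected on 0 of 3 vehicle arrays, at least 2.37-fold. Cd36 passed the detection filter through the imatinib groups alone, so its values are a description. Cebpa was not called by limma (0.57, adjusted p = 0.165), and Cidec, Fabp4 and Retn were detected on no array at 96 h. Summed intensity of the 10 markers was 6062 to 6501 in vehicle. At 32 h it was 9167 to 9989, at 64 h 13553 to 15169 and at 96 h 14393 to 15569.9. The part of these markers in the members' changes was not tested.

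Of 10 chondrocyte markers, 5 were measured and 2 fell at 96 h (Sox5 and Col2a1), with a summed intensity of 10254 to 10635 in vehicle; at 32 h it was 7162 to 7671, at 64 h 6833 to 7165 and at 96 h 6732 to 7319.95, and Acan, Matn3 and Chad were detected on no array. Of 14 blood cell markers, 4 were measured; Lyz2 rose by 1.93 (1.11 with no background correction), while Ptprc, Pax5, Cd79b, Vpreb1, Itgam and Hba-a1 were detected on no array, and the sum was 101 to 147 in vehicle and 293 to 323 at 96 h. Of 6 endothelial markers, 2 were measured and 0 were called by limma, with 0 at an unadjusted p under 0.05; Cdh5, Tek, Vwf and Emcn were detected on no array, and the sum was 42.5 to 45.5 in vehicle and 36.5 to 53.4 at 96 h. Their part in the members' changes was not tested either.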

How the data were processed

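Total RNA of 12 samples was read on Illumina BeadChips. Per the file headers, the authors deposited linear signal intensities from before normalization, which still hold the background, with a detection p-value beside each. A second deposited table holds the authors' normalized intensities, and the submitters' processing notes name limma. Which scanner, software and settings were used is not given in the sources used here. On the log2 scale the second table lay within 0.0193 of the values analysed. Array symbols come from GEO's platform annotation, and 34885 of 45281 probes have 1 symbol.

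Values were computed from the non-normalized intensities in R 4.3.3 with limma 3.58.1 (neqc with detection p-values, offset 16, quantile normalization, log2). Probes with detection p under 0.05 on at least 3 of 12 arrays were kept (18897), and a gene stands for its kept probe with the highest mean. A linear model of 4 group means over all 12 arrays (8 residual degrees of freedom) gave moderated tests, with Benjamini-Hochberg adjustment over all kept probes and calls at adjusted p under 0.05. Where no array of a group detected a probe, a fold is given as at least the ratio to the lowest detected level, or to the probe's own level where higher. The fit was tested on simulated data. Figures used Python 3.11.15 and matplotlib 3.10.9.

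The members, gene lists, marker lists and tests were chosen with earlier results of these data known. From each list the called genes with the largest changes were named, up to 4 a direction, with Col5a2 named beyond that after its values were seen; for each called member the 3 genes with the highest r were named. Same-numbered replicates did not deviate together (r = -0.022 to 0.055 over 18 pairs), so the numbers were not used as pairs. The alternatives were other background, scaling, offset, filter, variance, weight, probe and array choices, given in the closing section. RefSeq tables (GRCm38.p6) gave promoters for 6 of 9 members and were otherwise used for names and neighbours.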

Additional observations from a re-analysis of the deposited data

Results flagged for a closer look

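The change against vehicle at 0 h differed between imatinib times, by a direct test of 1 time against another, for 3 members. For Tnfrsf11b it was larger by log2 0.73 at 64 h than at 32 h and by 1.28 at 96 h than at 32 h. For Sp7 it was larger by 0.63 at 64 h and by 0.74 at 96 h than at 32 h. For Bglap2 it was lower by log2 -0.59 at 96 h than at 32 h. The comparisons of 96 h with 32 h cross the array labels, so label and time cannot be told apart in them. Vehicle was sampled at 0 h only, so treatment and time in culture cannot be told apart in any of these tests. The calls from 32 h to 64 h were lost in 7 of 19 alternatives for Tnfrsf11b and 8 of 19 for Sp7. For Bglap2 the call from 32 h to 96 h was lost in 5 of 18. An Ibsp probe left out by the detection filter was detected on 1 of 9 imatinib arrays (64 h replicate 2) and on 0 of 3 vehicle arrays.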

How the results depend on the processing

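Tnfrsf11b and Sp7 kept their calls in the comparisons of 96 h and 64 h with vehicle and of 96 h with 32 h in all alternatives run, with log2 changes at 96 h against vehicle of 1.49 to 1.71 and 0.64 to 1.17. The number of members called stayed at 2 to 3 for 96 h against vehicle and 96 h against 32 h, and at 2 for 64 h against vehicle. From 32 h to 64 h the main count of 2 became 0 in a fit of only the 6 arrays compared, 1 with no filter (Sp7), 1 with the mean of a gene's probes (Tnfrsf11b), 0 without replicate 3 of both groups together, and 0 to 1 when single arrays were left out. For 32 h against vehicle the count of 0 became 1 with the mean of a gene's probes (Sp7, adjusted p = 0.0256). That mean includes the dimmer Sp7 probe, which passed the detection filter through the imatinib groups alone, so this call is no support for a rise. For 96 h against 64 h the count of 0 became 1 with no background correction, with offset 50 and with trended and robust variances (Tnfrsf11b, adjusted p = 0.0217, 0.0344 and 0.0105). The cause of these moves was not tested, beyond the fewer arrays where arrays were left out. Without 96 h replicate 3, Tnfsf11 was called lower at 96 h than at 32 h (-0.57, adjusted p = 0.0457). Of 642 member values under alternatives, 592 kept direction and side of the threshold, 26 lost a call, 5 gained one and 19 changed sign, all without a call. Sign changes were Alpl at 96 h against vehicle with median scaling (0.0514) and when single arrays were left out (-0.113 to 0.0784), Ibsp at 32 h against vehicle with offset 50 (-0.000467) and single arrays out (-0.113 to 0.106), and Alpl at 64 h against vehicle with no background correction (-8.92e-05), array weights (-0.0107) and single arrays out (-0.0919 to 0.0830). With single arrays left out, values ran from -0.0354 to 0.177 for Bglap2 at 32 h and -0.193 to 0.0143 at 64 h against vehicle, and for 96 h against 64 h from -0.0416 to 0.259 for Tnfsf11 and -0.121 to 0.0851 for Alpl, which was 0.00456 with array weights. With the replicate number as a block, although the numbers do not pair the samples, the counts were 3 members called at 96 h against vehicle, and 2 between 32 h and 64 h. Array label as a random block could not be fitted together with the group means. Genes near 4.8 log2 units sit at the detection limit, which hides changes there.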
